A study of Mus musculus with 14 samples.

Results

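The genes described here are members of the p53 pathway and of the group of cyclin-dependent kinase (Cdk) inhibitors that form the senescence barrier to reprogramming. They were taken by symbol: every probe set whose only named gene was Trp53, Mdm2, Cdkn1a, Cdkn1b, Cdkn2a, Cdkn2b, Perp, Ccng1, Gadd45a or Bbc3 was followed over the 14 arrays. Of the 10 symbols, 9 had at least 1 probe set and 15 probe sets were found in all; 5 genes had 1 probe set and 4 genes had more than 1. No probe set named Trp53 as its only gene in the annotation used, and probe sets that name several genes were left out. For this reason p53 mRNA itself was not analysed here. The arrays held probe sets of 18194 named genes, of which 12663 passed the filter on low values, among them all 9 measured members. For these 9 genes the brightest probe set stands for the gene unless another is named.

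The study used mouse Affymetrix arrays to follow partially reprogrammed cells towards genuine induced pluripotent stem cells (iPSCs). The iPSCs were obtained from the partial iPSC clones 2B1 and 5C5 (female, C57BL/6) by placing them in 2i condition, and are called 2i iPSCs here (2 arrays, 1 per clone). The embryonic stem cells (ESCs) were a Nanog-GFP transgenic line recovered from blastocysts (male, C57BL/6) and the wild-type line EBRTcH3 (male, 129sv), 1 array each, grown with LIF and serum. The mouse embryonic fibroblasts (MEFs) were from Nanog-GFP transgenic embryos of both sexes (C57BL/6), were grown without LIF and filled 1 array; their age is 12.5 dpc by the sample title but 13.5 dpc by the design description. The untreated partial iPSCs were 2B1 and 5C5 in LIF and serum, 1 array each. Clone 2B1 was further infected with retrovirus and kept in LIF and serum, with 1 array each for Cnot1, Cnot2, Cnot3, the 3 subunits together (Cnot1,2,3), Trim28, Nanog and the empty vector. Each clone and each ESC line is a single line, so the 2 arrays of a group are 2 lines rather than 2 cultures of 1 line, and the p-values measure only the spread between these arrays. The 2i iPSCs differed from the partial iPSCs in medium and in reprogramming state at once. The ESCs differed from the iPSC clones in sex and, for EBRTcH3, in strain, and from the 2i iPSCs in medium as well.

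As background, p53 is a transcription factor that is held low by the ubiquitin ligase Mdm2 and released by DNA damage or oncogenic stress. Its target Cdkn1a encodes p21, which blocks Cdk2, while Bbc3 encodes the pro-apoptotic protein Puma. The Cdkn2a locus encodes p16Ink4a, an inhibitor of Cdk4 and Cdk6, and, from another promoter and reading frame, p19Arf, which inhibits Mdm2. Loss of p53, of p21 or of the Ink4a-Arf products is known to raise the efficiency of reprogramming of mouse fibroblasts.

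The values are log2 RMA signals, on which a difference of 1 is 2-fold, and the table median was 5.42. The 7 transduced arrays had array means of 5.87 to 5.88 against 6.08 to 6.09 on the 7 untransduced ones, so the sets were not taken to share a scale. All tests were kept within a set of 7, and where the sets are set against each other the 14 arrays were first quantile normalized together or the levels are given with that limit. The summed level of 10 pluripotency markers (log2 of summed signal) was 15.45 and 15.35 for the 2i arrays, with 15.73 and 15.77 for the ESC arrays. It was 8.27 for MEFs, while the 2B1 and 5C5 partial clones had 13.30 and 13.21. Nearly all of the sum in the partial clones came from 1 gene, Pou5f1, which read 13.25 in 2B1 and 13.16 in 5C5. The median of the 10 markers was only 4.37 in partial 2B1 and 4.61 in partial 5C5, close to the 4.125 of MEFs. Every 2i and ESC array had a median of at least 11.096. In each partial clone 2 of the 10 markers lay under the lower quartile of the array. The summed level of 10 fibroblast markers was 13.94 and 13.91 in 2i iPSCs, 8.56 and 8.31 in ESCs, 16.39 in MEFs, and 13.50 and 12.95 in partial iPSCs. The 2i iPSCs thus carried fibroblast marker signal far above that of ESCs, and the same was true of the partial clones. The summed level of the 7 measured proliferation genes lay between 14.47 and 14.96 in the 2i, ESC and partial arrays and was 13.66 in MEFs.

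Cdkn2a was the most clearly separated member. It has 2 annotated starts, 12427 bases apart on the minus strand of chromosome 4. The upstream one is that of the p19Arf transcript and the downstream one that of p16Ink4a. The windows from 250 bases before to 50 bases after each start (RefSeq, GRCm38.p6) are shown because a single probe set stood for both transcripts of the locus; the position of its probes is not given in the sources used here, and the transcripts were not told apart. They are given all in lower case, as no part of them is marked.
Cdkn2a upstream start, chr4:89294570-89294869, minus strand: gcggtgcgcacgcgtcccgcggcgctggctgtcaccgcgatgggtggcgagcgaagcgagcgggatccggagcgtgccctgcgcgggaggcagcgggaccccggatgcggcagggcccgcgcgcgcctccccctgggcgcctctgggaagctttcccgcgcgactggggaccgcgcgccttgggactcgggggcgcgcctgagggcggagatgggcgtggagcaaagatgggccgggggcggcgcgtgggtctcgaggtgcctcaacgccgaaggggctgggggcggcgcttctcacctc
Cdkn2a downstream start, chr4:89282143-89282442, minus strand: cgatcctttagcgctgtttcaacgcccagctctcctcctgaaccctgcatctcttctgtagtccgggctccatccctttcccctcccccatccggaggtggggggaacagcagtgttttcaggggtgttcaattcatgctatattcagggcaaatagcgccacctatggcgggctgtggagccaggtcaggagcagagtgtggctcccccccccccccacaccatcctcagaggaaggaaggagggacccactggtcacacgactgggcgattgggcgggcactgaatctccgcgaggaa
The Cdkn2a probe set read 4.79 in 2B1 and 5.55 in 5C5 2i iPSCs, 4.70 and 4.65 in Nanog-GFP and EBRTcH3 ESCs, 6.91 in MEFs, and 8.49 and 8.34 in 2B1 and 5C5 partial iPSCs. Within its own array this placed it at the 40.3 and 50.05 percentiles in 2i iPSCs, the 38.7 and 38.1 percentiles in ESCs, the 65.1 percentile in MEFs, and the 78.5 and 77.1 percentiles in partial iPSCs. Both partial clones were above every other untransduced array, MEFs included.

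Cdkn2a fell in 2i iPSCs, with a mean of 5.17 ± 0.54 against 8.42 ± 0.11 in partial iPSCs (SD, n = 2 each), a 9.47-fold lower signal (log2 fold change -3.24, SE 0.29, limma, Benjamini-Hochberg adjusted p = 0.00857). In ESCs it averaged 4.68 ± 0.03 against the same partial mean, a 13.4-fold lower signal (log2 fold change -3.74, SE 0.29, adjusted p = 0.00274, limma). The 2i iPSCs and the ESCs differed by 0.50 on the log2 scale (95% interval -0.24 to 1.24, adjusted p = 0.499, limma). Without the 2B1 2i array the first of these calls missed the threshold (log2 fold change -2.86, adjusted p = 0.0653, limma).

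Among the members, 3 fell in 2i iPSCs and none rose, where 2.46% of the 12663 tested genes were called lower and 3.55% higher. The same 3 genes, Cdkn2a, Cdkn1a and Perp, were called lower in ESCs than in partial iPSCs and none was called higher, where 9.82% of tested genes were lower and 6.09% higher. The 2 comparisons share the partial iPSC arrays. The median over the 9 members was -1.004 in 2i iPSCs and -0.70 in ESCs against partial iPSCs (log2), beside medians over all tested genes of 0.03 and 0.003. Between 2i iPSCs and ESCs no member passed the test in limma, 2 of 9 had an unadjusted p under 0.05 (Cdkn2b and Bbc3), and 3.85% of tested genes were called in either direction.

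**Figure D1:**
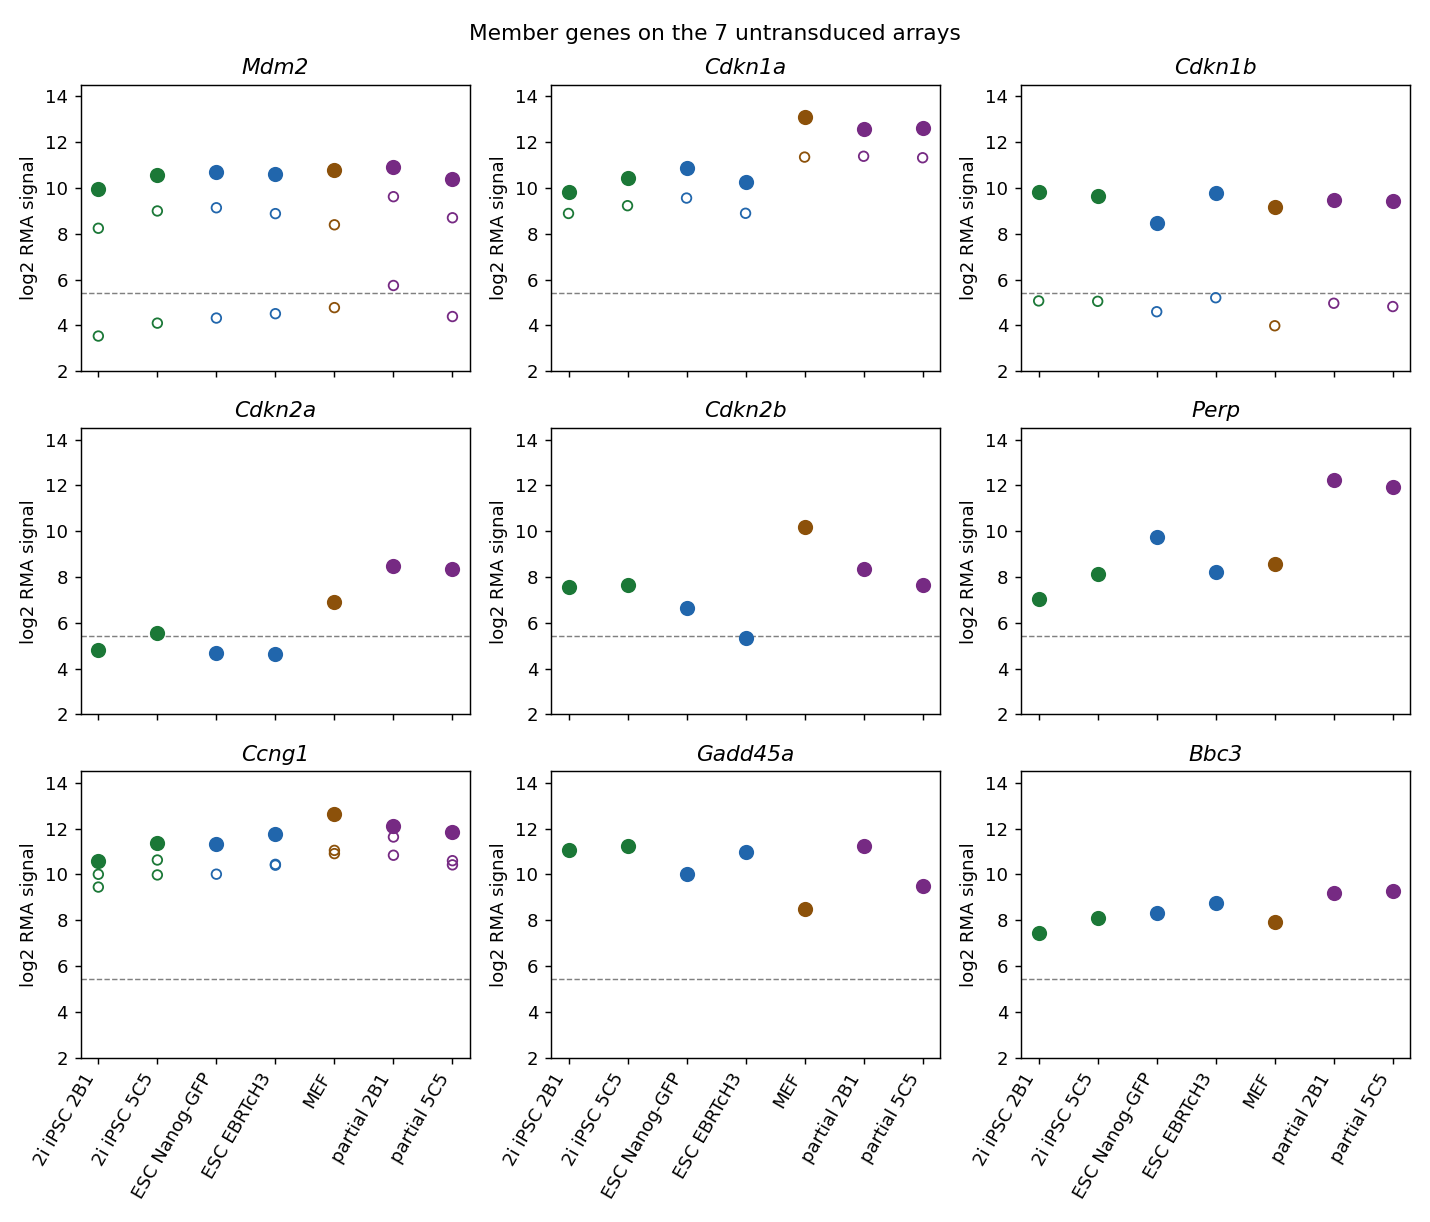
Log2 RMA signal of the 9 measured members on the 7 untransduced arrays (x axis), 1 panel per gene; filled points are the brightest probe set, open points the other probe sets of the gene, and the dashed line is the table median of 5.42. Cdkn2a lies between 4.65 and 5.55 on the 2i iPSC and ESC arrays and at 8.49 and 8.34 on the partial iPSC arrays, and Cdkn2b is highest in MEFs at 10.20.

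Cdkn1a, the p21 gene, lies on chromosome 17 with 2 annotated starts 2790 bases apart. The window of its upstream start holds a close match to the p53 consensus element, which is made of 2 parts of 10 bases, each with a fixed C at the fourth and a fixed G at the seventh place. The element was searched without a spacer and reads the same on both strands, and the tolerance of 1 mismatch was chosen after the windows had been seen. Of 32851 windows of 300 bases in the table, 22 (0.067%) hold such a match, and among the 13 windows of the 9 listed genes found in the table (Perp was the gene not found) 2 do, those of Cdkn1a and Ccng1. With up to 3 mismatches the share was 1.38% of all windows and 5 of the 13. These are RefSeq GRCm38.p6 windows with the match in capitals, shown because they are the closest matches among the listed genes.
Cdkn1a upstream start, chr17:29090729-29091028, plus strand: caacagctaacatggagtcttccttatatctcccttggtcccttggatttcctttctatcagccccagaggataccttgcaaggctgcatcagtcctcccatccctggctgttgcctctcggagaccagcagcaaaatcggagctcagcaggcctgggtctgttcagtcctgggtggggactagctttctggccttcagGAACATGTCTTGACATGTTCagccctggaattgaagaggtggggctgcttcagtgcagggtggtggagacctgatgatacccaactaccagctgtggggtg
Ccng1, chr11:40755237-40755536, minus strand: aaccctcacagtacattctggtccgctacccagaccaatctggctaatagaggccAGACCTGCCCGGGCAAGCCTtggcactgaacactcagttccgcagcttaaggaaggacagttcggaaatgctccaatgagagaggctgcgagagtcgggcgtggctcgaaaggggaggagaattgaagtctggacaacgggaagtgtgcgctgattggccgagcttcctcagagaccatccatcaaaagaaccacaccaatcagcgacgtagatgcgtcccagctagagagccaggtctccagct
The match lies at -51 to -32 from the Cdkn1a upstream start and at -195 to -176 from the Ccng1 start. It is a description of letters in the window and no measurement of p53 binding was made on these samples.

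Cdkn1a signal was 9.83 and 10.43 in 2B1 and 5C5 2i iPSCs, 10.86 and 10.28 in Nanog-GFP and EBRTcH3 ESCs, 13.12 in MEFs, and 12.58 and 12.61 in 2B1 and 5C5 partial iPSCs. The MEF and partial arrays were above all 4 arrays of 2i iPSCs and ESCs. MEFs were the highest on this probe set, while on the second one they read 11.35 against 11.38 and 11.32 in 2B1 and 5C5 partial iPSCs. Cdkn1a fell 5.51-fold in 2i iPSCs (10.13 ± 0.42 against 12.60 ± 0.02 in partial iPSCs, SD, n = 2 each; log2 fold change -2.46, SE 0.31, adjusted p = 0.0181, limma). In ESCs it was 4.07-fold lower than in partial iPSCs (10.57 ± 0.41, log2 fold change -2.03, SE 0.31, adjusted p = 0.0153, limma). The second Cdkn1a probe set gave -2.30 in 2i iPSCs (SE 0.29, adjusted p = 0.0194) and -2.13 in ESCs (SE 0.29, adjusted p = 0.0117) when each probe set was tested in limma. Leaving out any 1 of the 4 arrays compared ended the call in 2i iPSCs (adjusted p = 0.064 without partial 2B1, 0.0693 without partial 5C5, 0.146 without 2i 2B1 and 0.105 without 2i 5C5, limma). In ESCs the call ended without partial 2B1 (adjusted p = 0.0605, limma) and without partial 5C5 (adjusted p = 0.0571, limma).

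Perp encodes a tetraspan membrane protein of desmosomes that was found as a p53 target in apoptosis. Its signal was 7.03 and 8.12 in 2B1 and 5C5 2i iPSCs, 9.73 and 8.22 in Nanog-GFP and EBRTcH3 ESCs, 8.58 in MEFs, and 12.25 and 11.92 in 2B1 and 5C5 partial iPSCs. Both partial clones stood above all other untransduced arrays by more than 2 log2 units. Perp had the largest fold change of the members in 2i iPSCs, 22.8-fold lower (7.58 ± 0.77 against 12.09 ± 0.24 in partial iPSCs, SD, n = 2 each; log2 fold change -4.51, SE 0.61, adjusted p = 0.0222, limma). With the clone as a replicate block the adjusted p was 0.0563 (limma), and it was 0.0775 without partial 2B1, 0.0743 without partial 5C5, 0.157 without 2i 2B1 and 0.11 without 2i 5C5. In ESCs Perp was 8.62-fold lower than in partial iPSCs (8.98 ± 1.07, log2 fold change -3.11, SE 0.61, adjusted p = 0.0301, limma). That call ended without partial 2B1, partial 5C5 or the EBRTcH3 array. It also ended with the 4 arrays compared alone (adjusted p = 0.0612, limma), the same fit as without either 2i array. The summed epithelial markers, 6 genes that include keratins and Cdh1, read 11.64 and 11.78 in 2i iPSCs, 12.02 and 12.68 in ESCs, 10.23 in MEFs, and 10.56 and 13.08 in partial iPSCs. Of the 6 genes, Krt19 was lower than in partial iPSCs in 2i iPSCs (log2 fold change -5.35, adjusted p = 0.00327, limma). It was also lower in ESCs (-4.83, adjusted p = 0.00198, limma). In both comparisons Krt18 was called higher and the other 4 were not called. The part of the epithelial markers in the Perp values was not tested.

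The fibroblast marker sum was 13.94 and 13.91 in the 2i iPSCs in which Cdkn2a, Cdkn1a and Perp fell, against 13.50 and 12.95 in partial iPSCs. In ESCs it was 8.56 and 8.31, and its part in the ESC differences was not tested. In a bulk sample fewer cells that hold a transcript and less of it per cell cannot be told apart.

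Bbc3, the Puma gene, read 7.42 and 8.08 in 2i iPSCs, 8.32 and 8.74 in ESCs, 7.94 in MEFs, and 9.18 and 9.29 in partial iPSCs (2B1 before 5C5, Nanog-GFP before EBRTcH3). The 2i difference from partial iPSCs, -1.48, missed the threshold (SE 0.30, adjusted p = 0.0536, limma). It passed with the arrays centred on their medians (log2 fold change -1.53, adjusted p = 0.0495, limma) and under the stricter filter on low values (0.0485, limma). It also passed with the 4 arrays compared alone (0.0465, limma). Leaving out either ESC array repeats that last fit, and no other setting tried brought it under 0.05. In ESCs Bbc3 differed from partial iPSCs by -0.70 (SE 0.30, adjusted p = 0.173, limma).

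Ccng1, which encodes the p53-induced cyclin G1, read 10.59 and 11.39 in 2i iPSCs, 11.35 and 11.75 in ESCs, 12.62 in MEFs, and 12.13 and 11.86 in partial iPSCs. Its difference in 2i iPSCs was -1.004 (SE 0.33, 95% interval -1.85 to -0.16, adjusted p = 0.151, limma), which was not called. Mdm2 read 9.96 and 10.56 in 2i iPSCs, 10.71 and 10.60 in ESCs, 10.78 in MEFs, and 10.90 and 10.40 in partial iPSCs. The ESC values lay between the partial iPSC values and the 2i values overlapped with them, and the differences of -0.39 in 2i iPSCs (SE 0.30, adjusted p = 0.493) and 0.01 in ESCs (SE 0.30, adjusted p = 0.990) were not called in limma. The ESC value of Mdm2 had no settled sign, as it was -0.006 after median centring and -0.26 as the mean of its 3 probe sets.

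Gadd45a, a stress-induced gene of DNA repair and growth arrest, read 11.07 and 11.25 in 2i iPSCs, 10.02 and 10.99 in ESCs, 8.48 in MEFs, and 11.24 and 9.51 in partial iPSCs. The 2 partial clones differed by 1.73 on the log2 scale, and neither the 2i difference of 0.78 (SE 0.64, adjusted p = 0.518) nor the ESC difference of 0.13 (SE 0.64, adjusted p = 0.909) was called in limma. Without partial 5C5 the 2i difference was -0.08.

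Cdkn2b encodes p15Ink4b, an inhibitor of Cdk4 and Cdk6, and lies beside Cdkn2a. It read 7.58 and 7.66 in 2i iPSCs, 6.67 and 5.34 in ESCs, 10.20 in MEFs, and 8.34 and 7.67 in partial iPSCs. The 5C5 arrays were level (2i minus untreated -0.01), and the 2i difference over both clones was -0.39 (SE 0.49, adjusted p = 0.692, limma). In ESCs the difference from partial iPSCs was -2.004 (SE 0.49, adjusted p = 0.0528, limma), just short of the threshold; it passed under the stricter filter (0.0474) and without the Nanog-GFP array (log2 fold change -2.67, adjusted p = 0.0164, limma). The 2i iPSCs read 1.62 higher than ESCs (SE 0.49, 95% interval 0.37 to 2.86, adjusted p = 0.198, limma), and 2.28 higher with an adjusted p of 0.0409 when the Nanog-GFP array was left out. The fibroblast marker sum had the same order as Cdkn2b over 2i iPSCs, ESCs and MEFs, but partial iPSCs had a lower sum than 2i iPSCs beside a Cdkn2b level that was no lower; its part in these values was not tested.

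Cdkn1b encodes p27, an inhibitor of Cdk2 that is set mostly through protein turnover. It read 9.85 and 9.67 in 2i iPSCs, 8.48 and 9.77 in ESCs, 9.17 in MEFs, and 9.46 and 9.44 in partial iPSCs. Its 2i difference was 0.31 (SE 0.44, 95% interval -0.80 to 1.42, adjusted p = 0.725, limma). Its ESC difference was -0.33 (SE 0.44, adjusted p = 0.644, limma) and had no settled sign, being -0.97 (adjusted p = 0.0452) without the EBRTcH3 array and 0.32 without the Nanog-GFP array. The ESC lines differed by -1.29 for Cdkn1b, by 1.33 for Cdkn2b and by 1.51 for Perp (log2, Nanog-GFP minus EBRTcH3).

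**Figure D2:**
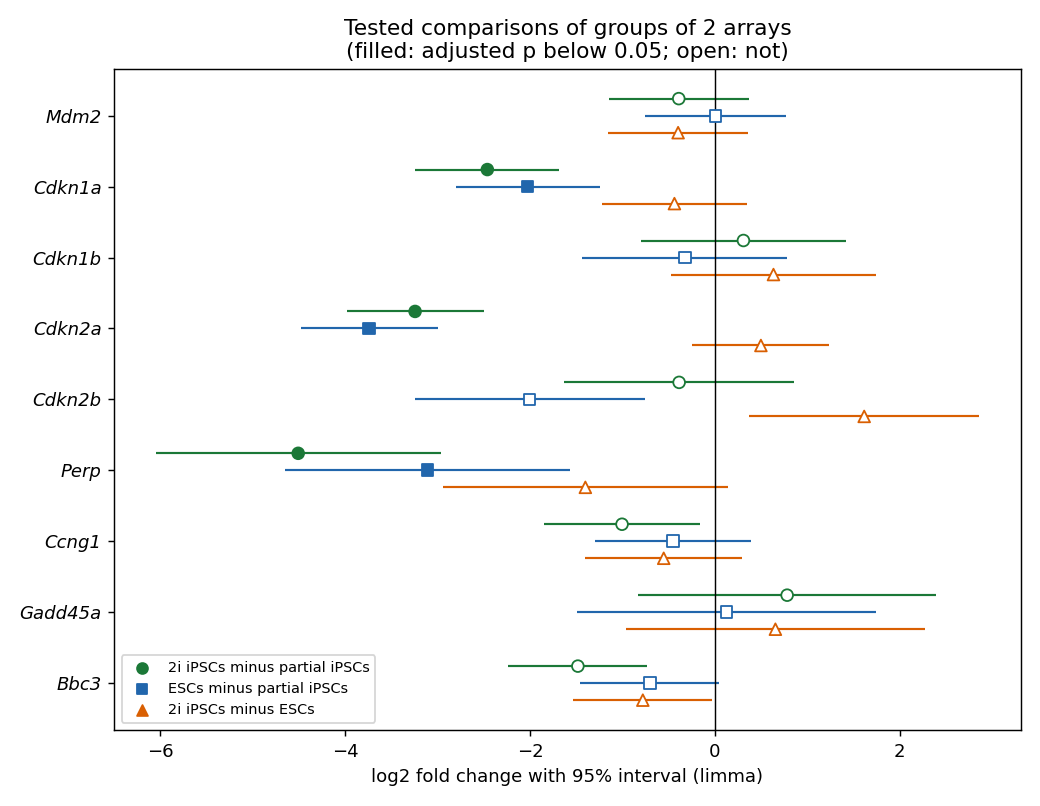
Log2 fold change of each member (y axis) in 3 comparisons of groups of 2 arrays, with 95% intervals from limma (x axis); filled markers have an adjusted p below 0.05 and open ones do not. Filled markers are found for Cdkn1a, Cdkn2a and Perp in both comparisons with partial iPSCs and for no member in 2i iPSCs minus ESCs.

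The 2 clones did not change by the same amount. The differences of 2i from untreated cells in 2B1 and 5C5 were -3.70 and -2.79 for Cdkn2a, -2.75 and -2.18 for Cdkn1a, -5.22 and -3.80 for Perp, and -1.75 and -1.21 for Bbc3. They were -0.95 and 0.17 for Mdm2, -1.54 and -0.47 for Ccng1, -0.77 and -0.01 for Cdkn2b, -0.17 and 1.74 for Gadd45a, and 0.39 and 0.23 for Cdkn1b. In 8 of 9 genes, and in 14 of 15 probe sets, the 5C5 difference was the higher one, where this held for 49.9% of all tested genes. With 1 array per clone and condition this contrast between clones has no test.

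**Figure D3:**
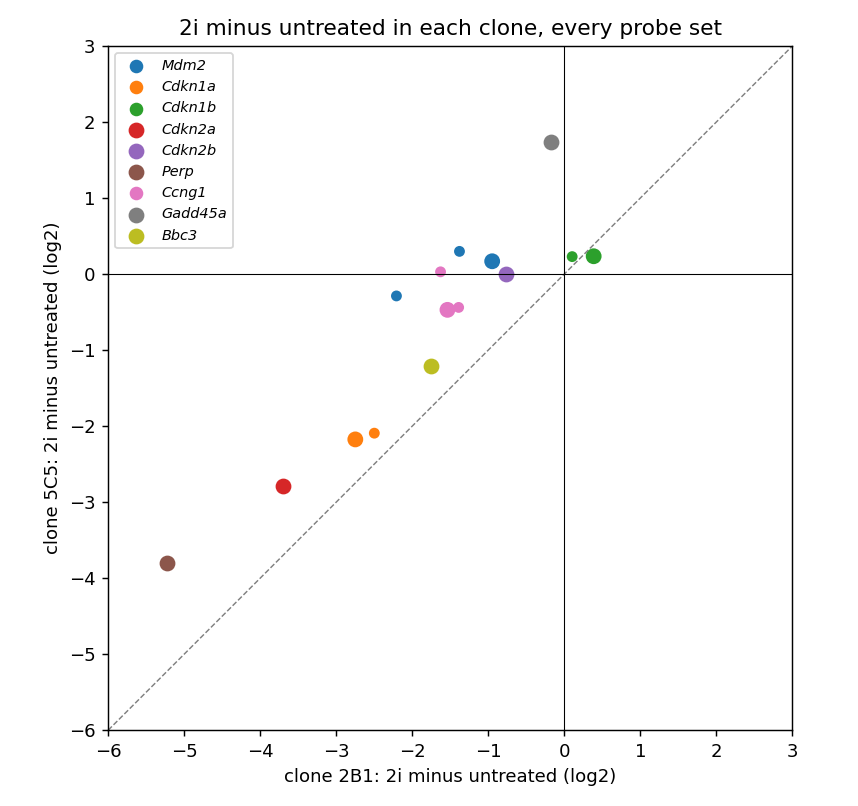
Log2 difference of 2i from untreated cells in clone 2B1 (x axis) and clone 5C5 (y axis) for all 15 probe sets; large points are the brightest probe set of a gene, small points the others, and the dashed line marks equal differences. All but 1 of the points lie above the line, and the points of Cdkn2a, Cdkn1a, Perp and Bbc3 are below 0 in both clones.

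The MEF array, with no replicate, had another order of these inhibitors. Relative to both partial clones, MEFs were at least 2-fold higher for 1 of 9 members, Cdkn2b (1.86 above 2B1 and 2.54 above 5C5, log2), where 9.9% of tested genes were. They were at least 2-fold lower for 4 of 9 members, where 11.3% of tested genes were. These were Perp (-3.68 and -3.34), Cdkn2a (-1.58 and -1.43), Gadd45a (-2.76 and -1.03) and Bbc3 (-1.24 and -1.35). Gadd45a no longer passed this rule after quantile normalization of all arrays. The brightest Cdkn1a probe set was 0.54 and 0.51 higher than in the partial clones, and the second differed by -0.04 and 0.03. Relative to both ESC lines, MEFs were at least 2-fold higher for Cdkn1a (2.26 and 2.84), Cdkn2a (2.22 and 2.26) and Cdkn2b (3.54 and 4.87), against 15.4% of tested genes, and at least 2-fold lower for Gadd45a (-1.54 and -2.51), against 15.2%. Cdkn2a and Cdkn2b, neighbours on chromosome 4, thus had different orders: Cdkn2a was highest in partial iPSCs and Cdkn2b in MEFs.

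Other genes of the pathway were taken from lists. The list counts stand beside these shares over all tested genes. Against partial iPSCs, 2.46% were called lower and 3.55% higher in 2i iPSCs, and 9.82% lower and 6.09% higher in ESCs. Between 2i iPSCs and ESCs 3.85% were called in either direction. Of 26 tested p53 targets outside the members, 2 fell in 2i iPSCs and none rose, with a list median of -0.38 on the log2 scale. They were Btg2, an antiproliferative gene (8.97 ± 0.83 against 12.12 ± 0.19 in partial iPSCs, log2 fold change -3.15, SE 0.57, adjusted p = 0.0429, limma), and Plk2, a polo-like kinase gene (10.20 ± 0.33 against 11.58 ± 0.09, log2 fold change -1.38, SE 0.23, adjusted p = 0.0358, limma). Both calls were lost with the clone as a replicate block or without any 1 of the 4 arrays compared. With probe sets averaged the Plk2 call was also lost (-0.67, adjusted p = 0.0928, limma), while Btg2 was kept (-3.26, adjusted p = 0.0312, limma). In ESCs 3 of the 26 were lower than in partial iPSCs and none higher: Fas (log2 fold change -2.91, SE 0.46, adjusted p = 0.017), Btg2 (-2.71, SE 0.57, adjusted p = 0.0358) and Plk2 (-1.97, SE 0.23, adjusted p = 0.00733). Of these Plk2 alone passed in every fit that left out 1 array, while the Btg2 call was lost in most of them and the Fas call in some. With the 4 arrays compared alone the calls of Btg2 (adjusted p = 0.0609, limma) and Fas (0.0563, limma) were lost and that of Plk2 was kept. As the mean of its probe sets, the Plk2 difference in ESCs was smaller (-0.80, adjusted p = 0.0384, limma). None of the 26 was called between 2i iPSCs and ESCs.

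Of 15 tested regulators of p53, none was called in 2i iPSCs. In ESCs the kinase gene Hipk2 was lower (log2 fold change -2.45, SE 0.29, adjusted p = 0.00745), and the deacetylase gene Sirt1 (2.37, SE 0.44, adjusted p = 0.0266) and the deubiquitinase gene Usp7 (0.81, SE 0.19, adjusted p = 0.0467) were higher than in partial iPSCs (limma). The Usp7 call was lost in every fit without 1 array and under quantile normalization. The Sirt1 call was lost with the 4 arrays compared alone (adjusted p = 0.0806, limma) and in most fits without 1 array.

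Of 14 tested regulators of the Ink4a-Arf-Ink4b locus, 2 rose and 1 fell in 2i iPSCs. The T-box repressor gene Tbx3 was 5.48 higher in 2i iPSCs than in partial iPSCs (11.17 ± 0.03 against 5.69 ± 0.80, SE 0.39, adjusted p = 0.00515, limma). The Polycomb gene Cbx7 was 4.99 higher (10.12 ± 0.28 against 5.14 ± 0.34, SE 0.39, adjusted p = 0.00642, limma). Id1, whose product restrains Ets factors, differed by -3.32 (8.89 ± 0.46 against 12.20 ± 0.34, SE 0.30, adjusted p = 0.00878, limma), and the other 11 were not called. These calls were lost without either 2i array. With probe sets averaged the calls were kept, but the 2i differences were smaller for Tbx3 (2.40) and Cbx7 (2.53). Their ESC differences were then 2.386 and 2.255. In ESCs the differences from partial iPSCs were 5.15 for Tbx3, 5.26 for Cbx7, -3.18 for Id1 and -2.56 for Ets1 (adjusted p of 0.00249, 0.00242, 0.00416 and 0.0123 in that order, limma), and all 4 passed in every fit without 1 array. Ets1 was 3.35 higher in 2i iPSCs than in ESCs (SE 0.36, adjusted p = 0.0117, limma; up to 0.143 without a 2i array).

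Of the 7 other Cdk inhibitors and Rb family genes, Rb1 alone was called, lower in 2i iPSCs (8.60 ± 0.50 against 11.01 ± 0.54 in partial iPSCs, log2 fold change -2.42, SE 0.36, adjusted p = 0.0286) and in ESCs (-1.87, SE 0.36, adjusted p = 0.0295, limma); up to 0.188 and 0.0919 without 1 array. With the clone as a replicate block the 2i call of Rb1 was lost (adjusted p = 0.0743, limma). Its ESC call was lost with the 4 arrays compared alone (adjusted p = 0.0613, limma) and in most fits without 1 array. Of the 9 cyclins and Cdks that these inhibitors hold, none was called in 2i iPSCs. In ESCs Ccnd2 (-5.28, SE 0.49, adjusted p = 0.00394, limma) and Ccnd1 (-2.09, SE 0.24, adjusted p = 0.00695, limma) were lower than in partial iPSCs. Cdk2 was higher there (0.94, SE 0.18, adjusted p = 0.0295, limma). The Cdk2 call was lost with the 4 arrays compared alone (adjusted p = 0.107, limma) and in most fits without 1 array. Ccnd2 and Ccnd1 were also higher in 2i iPSCs than in ESCs, by 3.78 (adjusted p = 0.0199, limma) and 1.70 (adjusted p = 0.025, limma), but both calls were lost without either 2i array (up to 0.196 and 0.264) and with probe sets averaged (0.0775 and 0.0941). The Ccnd1 call was kept in 1 of the 6 fits that left out 1 array, and with the 4 arrays compared alone its adjusted p was 0.0501.

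Of 12 tested genes of senescence-associated secretion and the nuclear lamina, none was called in 2i iPSCs against partial iPSCs. In ESCs 6 were lower and 1 higher than in partial iPSCs, where 9.82% of tested genes were lower and 6.09% higher. The lower ones were led by the chemokine genes Ccl2 (-5.23, SE 0.51, adjusted p = 0.00441, limma) and Cxcl1 (-4.92, SE 0.35, adjusted p = 0.00205, limma). Next came the protease gene Mmp3 (-4.91, SE 0.33, adjusted p = 0.00194, limma) and Igfbp3 (-3.81, SE 0.87, adjusted p = 0.044, limma). The Igfbp3 call was lost with the 4 arrays compared alone (adjusted p = 0.0838, limma) and in most fits without 1 array. Between 2i iPSCs and ESCs 5 were higher and none lower, among them Ccl2 (5.44, adjusted p = 0.00811), Cxcl1 (4.54, adjusted p = 0.00451), Mmp3 (3.88, adjusted p = 0.00607) and Il6 (3.59, adjusted p = 0.0119); these calls were lost without either 2i array. Fibroblast markers were high in the same arrays, and their part was not tested. Of 11 tested Bcl2 family genes none was called in 2i iPSCs. Bcl2 was lower in ESCs than in partial iPSCs (log2 fold change -3.44, SE 0.29, adjusted p = 0.00299, limma), by -1.95 with probe sets averaged. It was 2.36 higher in 2i iPSCs than in ESCs (SE 0.29, adjusted p = 0.0162, limma). That call was lost without either 2i array or the EBRTcH3 array. With probe sets averaged it was also lost (0.72, adjusted p = 0.184, limma). Bik was 1.01 higher in ESCs than in partial iPSCs (adjusted p = 0.0338, limma), a call kept in 1 of the 6 fits that left out 1 array.

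Perp is a desmosomal protein, and of 7 tested desmosome genes 2 fell in 2i iPSCs. They were Pkp1, for plakophilin (6.08 ± 0.53 against 9.54 ± 0.14 in partial iPSCs, log2 fold change -3.47, SE 0.30, adjusted p = 0.00748), and Jup, for plakoglobin (7.07 ± 0.06 against 8.28 ± 0.02, -1.21, SE 0.19, adjusted p = 0.0303, limma). The Jup call was lost with the clone as a replicate block (adjusted p = 0.0872) and without any 1 of the 4 arrays compared (up to 0.253), and Pkp1 without the 2B1 2i array (0.0601). In ESCs Pkp1 was lower than in partial iPSCs (log2 fold change -4.04, SE 0.30, adjusted p = 0.00236, limma) and no other desmosome gene was called. Of the 7 genes of p27 turnover, the 3 genes of a list of other Gadd45 genes and a Gadd45-interacting gene (Gadd45b, Gadd45g and Gadd45gip1) and the 7 measured proliferation genes, none was called in 2i iPSCs.

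In the transduced 2B1 cells the question was whether the introduced Cnot subunits, Trim28 or Nanog moved these genes away from the empty vector. The labels were not borne out by the probe sets of the introduced genes. The Nanog probe set was -0.99 on the array labelled Nanog relative to the vector array, where it read 4.11, and the Trim28 probe sets were -0.02 and -0.33 on the array labelled Trim28. The Cnot3 probe sets were 0.06 and 0.30 on the array labelled Cnot3, and the Cnot2 probe sets lay between -0.32 and 0.08 on the array labelled Cnot2. No probe set was named for Cnot1 alone. The position of the probes is not given in the sources used here, so whether they detect the introduced cDNA was not tested, and the arrays are called by their labels.

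The vector array also stood apart from untreated 2B1. After quantile normalization of all 14 arrays together, vector minus untreated 2B1 was 0.97 for Cdkn2a, -1.02 for Mdm2, -1.29 for Gadd45a, -1.25 for Bbc3, -1.10 for Cdkn2b and -0.72 for Perp. The fibroblast marker sum was 10.69 on the vector array and 10.90 to 12.23 on the 6 factor arrays. The epithelial sum was 8.79 on the array labelled Cnot1,2,3 and 10.50 to 11.84 on the other factor arrays, against 12.67 on the vector array. The part of these differences in the values below was not tested, and with 1 array per condition nothing here has a replicate check.

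Cdkn2a was lower on all 6 factor arrays than on the vector array. It read 8.45 on the array labelled Cnot1, 8.32 on Cnot2, 8.35 on Cnot3, 8.11 on Cnot1,2,3, 8.18 on Trim28 and 8.59 on Nanog, against 9.22 on the vector array. The differences ran from -1.11 (Cnot1,2,3) to -0.63 (Nanog). Against untreated 2B1 after joint quantile normalization they were 0.29 on Cnot1, 0.09 on Cnot2, 0.14 on Cnot3, -0.06 on Cnot1,2,3, -0.04 on Trim28 and 0.35 on Nanog. It was the only member with its highest value on the vector array, as 19.1% of tested genes had, and no member had its lowest value there, as 14.9% had. All 7 transduced arrays remained above the Cdkn2a level of the 2i iPSC arrays (4.79 and 5.55) and ESC arrays, although the 2 sets do not share a scale; within the vector array it stood at the 86.6 percentile.

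Mdm2 and Gadd45a were higher on the arrays labelled Cnot1 and Cnot2 than on the vector array. Mdm2 read 10.75 on Cnot1, 10.54 on Cnot2, 10.05 on Cnot3, 10.71 on Cnot1,2,3, 9.93 on Trim28 and 9.60 on Nanog, against 9.68 on the vector array. Its differences of 1.07 on Cnot1 and 1.03 on Cnot1,2,3 were at least 2-fold, and its other 2 probe sets gave 1.14 and 1.59 on Cnot1 and 0.90 and 1.15 on Cnot1,2,3. Gadd45a read 10.82 on Cnot1, 10.86 on Cnot2, 9.68 on Cnot3, 8.95 on Cnot1,2,3, 9.32 on Trim28 and 9.84 on Nanog, against 9.74 on the vector array. Its differences were 1.08 on Cnot1, 1.11 on Cnot2 and -0.79 on Cnot1,2,3, so the array with all 3 subunits lay on the other side of the vector from the arrays with Cnot1 or Cnot2 alone. Set against untreated 2B1 instead, after quantile normalization of all arrays, Mdm2 was 0.10 on Cnot1, -0.14 on Cnot2 and 0.06 on Cnot1,2,3, and Gadd45a was -0.17 on Cnot1 and -0.16 on Cnot2.

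At least 2-fold differences from the vector array were found for 2 of 9 members on Cnot1 (10% of tested genes), 1 on Cnot2 (6.75%), none on Cnot3 (7.68%), 2 on Cnot1,2,3 (12.1%), 1 on Trim28 (2.49%) and none on Nanog (1.43%). The 2 on Cnot1,2,3 were Mdm2, higher, and Cdkn2a, lower, and the 1 on Trim28 was Cdkn2a at -1.04. The brightest probe sets of the remaining genes stayed within 2-fold of the vector array. Cdkn1a differed by 0.59 on Cnot1 and 0.48 on Cnot2 and by -0.23 to 0.27 on the others, and Bbc3 by 0.83 on Cnot1, 0.80 on Cnot2 and -0.35 to 0.41 on the others. Perp lay between 11.14 and 11.70 on the factor arrays, against 11.33 on the vector array. Ccng1 differed by -0.12 to 0.66, but its second probe set was 1.02 on Cnot1 and its dimmest 1.06 on Cnot1,2,3. The differences were -0.14 to 0.48 for Cdkn2b and -0.31 to 0.72 for Cdkn1b. Member medians were 0.59 on Cnot1, 0.48 on Cnot2, 0.10 on Cnot3, 0.27 on Cnot1,2,3, -0.13 on Trim28 and 0.05 on Nanog, beside medians over all tested genes of -0.05, -0.04, -0.01, -0.006, -0.02 and -0.01.

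**Figure D4:**
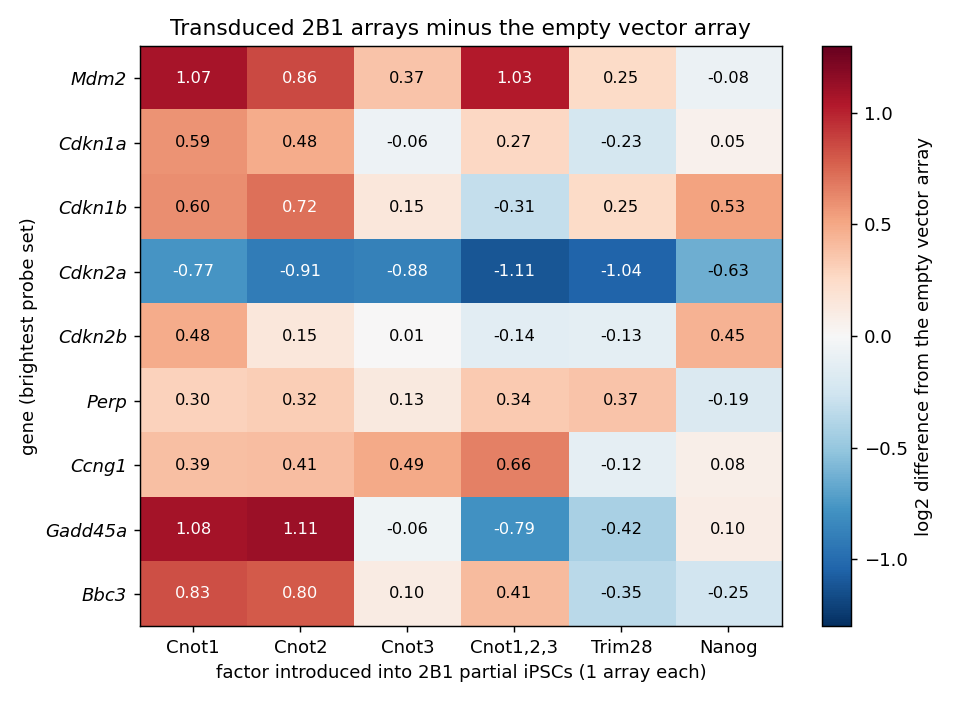
Log2 difference of each transduced 2B1 array (columns, 1 array each) from the empty vector array for the 9 members (rows, brightest probe set), printed in each cell and coloured red above 0 and blue below 0. Cdkn2a is below 0 in every column, and Mdm2 and Gadd45a exceed 1 on the array labelled Cnot1.

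Of the 26 other p53 targets, 7 were at least 2-fold higher on the array labelled Cnot1 and 1 was lower, with a list median of 0.58. There 10% of all tested genes were at least 2-fold away in either direction, with a median of -0.05. The shares and medians over all tested genes on the other arrays are those given above for the members. The lysosomal gene Dram1 differed by 2.16, Ei24 by 1.40 and the death receptor gene Eda2r by 1.24, and the lower one was Sfn at -3.14. Untreated 2B1 and the vector array read 6.88 and 4.94 for Dram1, 11.83 and 10.76 for Ei24, and 9.74 and 8.95 for Eda2r. The 2 sets do not share a scale, and whether these genes rose above untreated 2B1 was not tested. On Cnot2 3 were higher and 1 lower (median 0.44), on Cnot3 1 and 1 (0.28), on Cnot1,2,3 2 and 2 (0.52), on Trim28 none and 2 (-0.02), and on Nanog none and none (-0.12). Sfn, the epithelial gene for stratifin, was high in untreated 5C5 (8.79) and on the vector array (8.23) but not in untreated 2B1 (5.04), as the epithelial marker sum was, although these sets do not share a scale. The Cdk inhibitor gene Cdkn2c was higher than on the vector array on Cnot1 (1.64), Cnot2 (1.53), Cnot3 (1.14) and Cnot1,2,3 (1.53). Rb1 was higher on Cnot1 (1.39), Cnot2 (1.36) and Cnot3 (1.02). Untreated 2B1 and the vector array read 8.74 and 6.19 for Cdkn2c and 11.39 and 9.695 for Rb1, with the same limit of scale.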

How the data were processed

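The authors deposited 1 log2 value per probe set and array, made with RMA in the affy package per the submitters' processing notes; no version is given in the sources used here. The sorted values differ between the 7 untransduced and the 7 transduced arrays more than within either set, so no test crosses the sets. Of 45101 probe sets, 64 are controls, 34945 name 1 gene, 932 several and 9160 none; 34741 were matched to the RefSeq table. The brightest probe set of a gene was kept, and genes with at least 2 of 14 arrays at or above the table median entered the test. limma 3.58.1 in R 4.3.3 (lmFit, eBayes) was fitted to the 6 arrays of 2i iPSCs, ESCs and partial iPSCs, with 3 residual and 2.245 prior degrees of freedom and Benjamini-Hochberg adjustment over 12663 genes, called below 0.05; it was tested on simulated data. The number of arrays limits the precision, and conditions with 1 array had no test. The 2i and partial arrays are paired by clone, since each number is the same cell line (correlation of deviations 0.111). The main fit did not use this pairing, which entered only in the alternative with the clone as a replicate block. All members, up to 4 called genes per list by size of change, and the 3 genes most like Cdkn2a, Cdkn1a and Perp were named. The members and lists were chosen with earlier results of these data known, and they are not independent support. Alternatives covered scaling, filter, probe set choice, arrays in the fit, intensity trend, replicate block and each array left out. Leaving out either array of the group not compared repeats the fit of the 4 arrays compared, so these are not separate checks.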

Additional observations from a re-analysis of the deposited data

Results flagged for a closer look

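In 4 probe sets of 3 members the 2i minus untreated difference had opposite signs in the clones. The 2B1 difference minus the 5C5 difference was -1.117 for the brightest Mdm2 probe set, -1.677 for the second Mdm2 probe set, -1.657 for the second Ccng1 probe set and -1.905 for Gadd45a (log2). Each clone has 1 array per condition, so these differences between the clones were not tested. For Gadd45a the untreated clones already differed by 1.73 and the 2i arrays by -0.18 (2B1 minus 5C5), and for Mdm2 the untreated clones differed by 0.51.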

How the results depend on the processing

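Each alternative changed 1 choice, apart from the comparison with untreated 2B1, which changed the baseline and the scaling together. Of the members' fold changes in the 3 tested comparisons, 350 alternative values kept direction and side of the threshold, 18 missed a threshold passed before, 9 passed one missed before and 10 reversed. These numbers hold repeats, since leaving out either array of the group not compared gives the fit of the 4 arrays compared. Members called numbered 0 to 4 in 2i iPSCs against partial iPSCs, 1 to 4 in ESCs against partial iPSCs and 0 to 1 in 2i iPSCs against ESCs when 1 array was left out (as reported 3, 3 and 0). Over all genes the counts were 760, 2015 and 487 as reported, and 43 to 1396, 780 to 2328 and 0 to 786 with 1 array left out. With the clone as a replicate block 297 genes were called in 2i iPSCs against partial iPSCs, and of the members' calls the block ended that of Perp and no other. With the 4 arrays compared alone, 1396 and 780 genes were called against partial iPSCs in 2i iPSCs and ESCs. Testing each probe set gave 3159 calls in ESCs against partial iPSCs, and the stricter filter gave 296 in 2i iPSCs against ESCs. Leaving out 1 array lowered the counts in some fits and raised them in others. Each such fit has fewer residual degrees of freedom than the main fit. A lost call therefore does not show that it rested on the array left out, and what else moved the counts was not tested.

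Reversed values all belonged to changes that had not been called, apart from Gadd45a on Cnot1 and Cnot2, which had no test. Mdm2 in ESCs against partial iPSCs was -0.006 with centred arrays, -0.01 after quantile normalization, -0.26 as the mean of probe sets and -0.25 to 0.26 with 1 array left out. Leaving out 1 array gave -0.081 to 1.65 for Gadd45a in 2i iPSCs, -0.74 to 0.99 for Gadd45a and -0.97 to 0.32 for Cdkn1b in ESCs against partial iPSCs, and -0.012 to 1.28 for Cdkn1b in 2i iPSCs against ESCs. With probe sets averaged, 2 members rather than 1 were 2-fold from the vector array on Cnot2. Against untreated 2B1 in place of the vector array, after joint quantile normalization, no member was at least 2-fold away on Cnot1 or Cnot2. Gadd45a was -0.17 on Cnot1 and -0.16 on Cnot2. On the other arrays every member at least 2-fold away was lower. These were Gadd45a, Bbc3 and Cdkn2b on Cnot3 (-1.34, -1.07 and -1.01) and Trim28 (-1.69, -1.54 and -1.17). They were Gadd45a and Cdkn2b on Cnot1,2,3 (-2.03 and -1.10), and Bbc3, Gadd45a and Mdm2 on Nanog (-1.46, -1.18 and -1.08). On the vector array these genes were lower too (Gadd45a -1.29, Bbc3 -1.25, Cdkn2b -1.10 and Mdm2 -1.02). The share over all tested genes is not given for this baseline. Centring and quantile normalization moved the median of all tested genes by less than 0.1 on the log2 scale.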

Other observations

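Over the 7 untransduced arrays, 4084 tested genes spanned at least 2 log2 units, and those closest in pattern to 3 members were named by Pearson correlation as a description, since the arrays fall into groups. For Cdkn2a they were Mkx (0.994), Dglucy (0.991) and Hoxa9 (0.988). Hoxa9, a posterior homeobox gene, read 4.89 and 6.03 in 2i iPSCs, 4.63 and 3.49 in ESCs, 9.35 in MEFs, and 11.30 and 11.07 in partial iPSCs, so it too was higher in partial iPSCs than in MEFs. For Cdkn1a they were Ndnf (0.977), Fstl1 (0.969) and Gdf10 (0.966), all highest in MEFs. For Perp they were Sox11 (0.986), Mab21l3 (0.979) and Ptp4a3 (0.977), all highest in partial iPSCs.

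The Polycomb gene Cbx8, of the list of Ink4a-Arf-Ink4b regulators and singled out after its values were seen, was lower on 5 of the 6 factor arrays than on the vector array by at least 2-fold: -1.08 on the array labelled Cnot1, -1.03 on Cnot2, -1.58 on Cnot3, -1.36 on Cnot1,2,3 and -1.22 on Trim28, with -0.63 on Nanog. Like Cdkn2a, it read highest of the transduced arrays on the vector array (7.80), as 19.1% of tested genes did. Untreated 2B1 read 6.58, although the 2 sets do not share a scale, and whether Cbx8 fell below untreated 2B1 was not tested. The share of tested genes this low on 5 factor arrays is not given.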
